A study of Homo sapiens with 18 samples.

Results

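The regions described here are the wide accessible regions of the genome that lie away from promoters. They were chosen from an ATAC-seq region table as those at least 800 bases wide and more than 5 kb from every start site of a protein-coding gene, and 1705 of the 115087 regions of the table met both conditions. A further 2996 regions were at least as wide but lay within 5 kb of a start site, and 90062 regions lay as far away but were narrower. The measurement was made in the established head and neck squamous cell carcinoma lines SCC1, SCC6 and SCC25, which were exposed to cetuximab at 100 nM every day or to PBS for 5 days. The 17 libraries formed 6 groups, one of each treatment in each line, with 3 replicates in every group apart from the SCC1 PBS group, which had 2 because its replicate 2 was not analysed here. Every group came from a cultured cell line, and the PBS groups received the vehicle alone. The labels do not state whether replicates were separate cultures, so the p-values measure only the spread between these samples.

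ATAC-seq uses the Tn5 transposase to insert adapters into DNA that is not covered by nucleosomes, so that open chromatin yields more reads. Distal open regions are often enhancers, stretches of DNA where transcription factors bind and from which they can raise transcription of a gene far away on the same chromosome. Cetuximab is an antibody that blocks the epidermal growth factor receptor EGFR, whose signal through the ERK kinases feeds the AP-1 transcription factors. AP-1 and the TEAD factors are known for occupying many enhancers of squamous epithelial cells. In these files an open region is not tied to the gene it acts on, and each region is called after the nearest protein-coding start site as a label only.

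6 of the regions on which the results below turn are shown by sequence. For each one the 200 bases with the most motif matches are printed in lower case from GRCh37 (hg19), on the forward strand, and capitals mark the matches. They are the region with the smallest adjusted p among those higher and among those lower with cetuximab in SCC1 (chr17:41400656-41400855 near TMEM106A and chr6:86174127-86174326 in an intron of NT5E) and in SCC6 (chr11:101349408-101349607 in an intron of TRPC6 and chr7:12105983-12106182 near TMEM106B), the first among those lower in SCC25 (chr5:44665163-44665362 near MRPS30), and the second among those higher over the 3 lines (chr6:114466474-114466673, nearest to HDAC2 and inside an intron of HS3ST5).
TMEM106A: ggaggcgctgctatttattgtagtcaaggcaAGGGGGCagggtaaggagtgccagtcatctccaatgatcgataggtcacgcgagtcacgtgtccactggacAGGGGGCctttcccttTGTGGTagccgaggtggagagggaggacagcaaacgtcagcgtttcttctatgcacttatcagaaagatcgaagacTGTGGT
NT5E: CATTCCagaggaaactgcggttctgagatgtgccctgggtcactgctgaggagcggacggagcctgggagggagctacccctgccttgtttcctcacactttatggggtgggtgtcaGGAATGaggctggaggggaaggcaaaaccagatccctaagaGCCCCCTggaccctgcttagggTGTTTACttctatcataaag
TRPC6: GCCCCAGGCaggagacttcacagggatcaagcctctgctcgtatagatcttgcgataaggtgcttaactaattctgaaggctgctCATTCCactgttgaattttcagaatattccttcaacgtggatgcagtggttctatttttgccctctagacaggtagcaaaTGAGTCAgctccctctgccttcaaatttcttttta
TMEM106B: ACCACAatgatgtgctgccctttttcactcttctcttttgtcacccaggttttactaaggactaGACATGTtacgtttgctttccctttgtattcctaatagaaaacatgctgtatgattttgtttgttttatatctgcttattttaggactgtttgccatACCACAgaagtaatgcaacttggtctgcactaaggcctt
MRPS30: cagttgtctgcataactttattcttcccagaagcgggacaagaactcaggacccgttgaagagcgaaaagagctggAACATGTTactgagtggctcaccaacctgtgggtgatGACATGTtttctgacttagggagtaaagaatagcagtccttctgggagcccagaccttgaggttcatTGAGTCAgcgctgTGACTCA
HDAC2: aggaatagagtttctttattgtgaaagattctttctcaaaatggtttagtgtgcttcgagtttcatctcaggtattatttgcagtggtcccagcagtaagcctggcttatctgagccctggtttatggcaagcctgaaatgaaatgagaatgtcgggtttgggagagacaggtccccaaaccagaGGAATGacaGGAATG
The letters searched on both strands were TGANTCA for AP-1, GGAATG for TEAD, GCCNNNGGC for TFAP2, TGTGGT for RUNX, ACATGTC for the p53 family, AACNNGTT for GRHL, TGTTTAC for FOX, GGGCGG for SP/KLF and AGGGGGC for CTCF, and the letters of no motif hold those of another. The MRPS30 window held 2 AP-1 matches, 1 GRHL match and 1 p53 family match. The TRPC6 window held 1 match each for AP-1, TEAD and TFAP2, the NT5E window 2 TEAD matches, 1 CTCF match and 1 FOX match, and the HDAC2 window 2 TEAD matches. In the TMEM106A window the capitals are 2 CTCF and 2 RUNX matches, and in the TMEM106B window 2 RUNX matches and 1 p53 family match. Among all 47694 regions at least 300 bases wide, the central 300 bases held an AP-1 match in 33.4%, a TEAD match in 23.2%, a TFAP2 match in 17.8%, a RUNX match in 23.5%, a CTCF match in 8.42%, a FOX match in 8.43%, a GRHL match in 5.41% and a p53 family match in 2.62%. A match is a description of the sequence.

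The values are a signal per region that the authors scaled between libraries. Dividing by a fixed step per library turned all values into whole reads, where regions without reads had been given 1. Reads in regions came to 2194851 to 15017130 per library, and the 5 SCC1 libraries held 2194851 to 4171650 of them. The median wide distal region had 47 reads in the shallowest library (SCC1 cetuximab replicate 2) and 382 in the deepest for these regions (SCC25 PBS replicate 1). In SCC25 the PBS libraries held 5509462 to 13408698 reads and the cetuximab libraries 2513828 to 7385401, so treatment and depth moved together there and the part of depth was not tested. In SCC1 the median wide distal region had 75, 47 and 59 reads in the cetuximab libraries and 86 and 101 in the PBS libraries. The called peaks there numbered 27086, 13035 and 23017 with cetuximab and 36033 and 34763 in PBS. The part of depth was not tested in SCC1 either. A promoter region was present for 10 of 10 epithelial marker genes, with a peak in at least 1 library for 7 of them in SCC1, 10 in SCC6 and 9 in SCC25. A peak in every library of the line was present for 1 of them in SCC1, 6 in SCC6 and 0 in SCC25. A promoter region was also present for 2 of 8 haematopoietic markers (CD14 and ITGAM) and 3 of 9 fibroblast and endothelial markers (COL1A1, COL1A2 and DCN), and none for PTPRC, CD3E, PECAM1 or VWF. The mean PBS signal over the lines ran from 4.92 to 86.9 for CD14 and ITGAM, from 10.4 to 130.3 for the collagen genes and from 0.649 to 1.35 for DCN. Among the epithelial markers it ran from 10.4 (KRT19 in SCC25) to 475 (KRT8 in SCC6). ITGAM had a peak in 3 SCC1, 0 SCC6 and 5 SCC25 libraries, and COL1A1 in 3, 6 and 5. The epithelial marker TP63 had one in 0, 5 and 2 libraries of these lines, so some markers of other cell types had more peaks than some epithelial ones.

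The 1705 regions were 914 bases wide at the median (quartiles 852 and 1033, range 800 to 2407) and covered 1649.4 kb in all. Of these, 511 were at least 1 kb wide. The widest was a stretch of 2407 bases at chr15:100466457-100468863, 193 kb from LYSMD4, with a GC content of 75.3%. Their median signal was 122, against 19.0 in the narrower distal regions and 191 in the wide regions within 5 kb of a start site. Per kilobase of region the medians were 129, 80.5 and 192, so the gap to the narrower regions was smaller per kilobase. At the edge of the width rule, the 179 members less than 20 bases above the limit had a median signal of 97.2 and the 205 distal regions up to 20 bases below it had one of 96.5. At the edge of the distance rule, the 38 members more than 5 and up to 6 kb from a start site had a median signal of 146, and the 32 wide regions 4 to 5 kb away had 151. The median member carried a called peak in 13 of the 17 libraries, a narrower distal region in 5.

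Annotation with GENCODE on GRCh37 placed 641 of them (37.6%) between genes, 561 (32.9%) in introns of protein-coding genes, 418 (24.5%) in non-coding genes, 74 over coding sequence and 11 over a UTR. The median distance to the nearest protein-coding start site was 50.6 kb, with 149 members up to 10 kb away, 695 at 10 to 50 kb, 323 at 50 to 100 kb, 455 at 100 to 500 kb and 83 farther. Base composition separated them from wide promoter-side regions: the median GC content was 49.4% against 65.9%, and 294 members (17.2%) had a CpG ratio of 0.6 or more, a usual mark of CpG islands, against 90.1% of the wide regions near start sites and 4.67% of the narrower distal ones. A lncRNA start lay within 1 kb of 225 members (13.2%, and 2.65% of narrower distal regions), so the distance rule, set on protein-coding genes, kept regions at the starts of non-coding ones.

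A small group had peaks but no reads in the region table. The signal of 31 members (1.82%) stood at 1 read, the value given to 0, in every library, although 20 of them carried a called peak in 9 or more libraries and 6 in every library. Over the whole table, 3251 regions (2.82%) were at this floor. The largest run of members, 4 regions over 23.5 kb ahead of FCGR2A (chr1:161416817-161440275, inside a non-coding gene), belonged here: 3 of the 4 were at the floor throughout and the other was above it in 1 library, while each had a peak in 16 or 17 libraries. FCGR2A encodes a receptor for the constant part of IgG. The second widest member, 2390 bases near TENM3, and a member near MMP12 were also at the floor. What set reads and peaks apart in these regions was not tested, and they took no part in the tests of change.

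The 1705 regions had 1397 different nearest genes. Of these genes 1160 had 1 member, 186 had 2, 37 had 3, 11 had 4, 2 had 5 and 1 had 8. Members seldom lay side by side: joining those within 10 kb of each other gave 1664 groups, of which 38 held more than 1 member and the largest held 4. The gene with 8 members was MYC, the transcription factor that drives growth and is a known target of the ERK pathway. EGFR itself, the target of cetuximab, had 5 members, as did NFATC2, a transcription factor activated by calcineurin. ARF6, ASAP1, BMPER, BTBD3, CROCC, FCGR2A and FLRT2 were among the genes with 4 members.

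By signal per kilobase, 4 of the 5 strongest members lay close together on chromosome 11, near BIRC3, MMP7 and MMP20. BIRC3 is an inhibitor of apoptosis and the MMP genes encode matrix-degrading proteases. At chr11:102176609-102177771, 10.4 kb from BIRC3, the PBS signal was 3175, 3060.5 and 3324 in SCC6, 249 and 264 in SCC1 and 240.4, 247 and 229 in SCC25. At chr11:102422881-102423802, the PBS signal was 1921, 1843 and 2027 in SCC6, 44.2 and 69.2 in SCC1 and 144, 132 and 140.0 in SCC25. Every SCC6 library was far above every library of the other lines at both. The level was not confined to these members, since the median log2 difference of SCC6 from SCC1 over the 201 to 205 regions of any width within 1 Mb was 3.39 to 3.41 for these 4. A change in DNA copy number and a change in chromatin cannot be told apart in these files. The fifth, near RWDD3 at chr1:96208018-96208849, was highest in SCC25, with 1422, 1425 and 1200.3 in its PBS libraries against 214, 219 and 238 in SCC6, and its neighbours were higher there as well (median log2 2.25).

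Untreated lines differed at most wide distal regions that could be tested. The 25% of regions lowest in mean signal were left out of each fit, which kept 1621 members in the comparison of PBS libraries. Of these, 653 were higher and 469 lower in SCC25 than in SCC1 by limma at a Benjamini-Hochberg adjusted p under 0.05 over all 86315 regions tested, where 28.2% and 23.1% of all regions were. In SCC6 against SCC1, 508 were higher and 675 lower, beside 30.7% and 30.5% of all regions. In SCC25 against SCC6, 780 were higher and 464 lower, beside 36.7% and 32.1%. As shares of the members tested these were 40.3% and 28.9%, 31.3% and 41.6%, and 48.1% and 28.6%. These directions were not fixed. After median centring of the libraries the counts became 472 and 752 for SCC25 against SCC1, 369 and 855 for SCC6 against SCC1, and 708 and 541 for SCC25 against SCC6. Removing the trend with GC content turned the last comparison to 604 higher and 670 lower and the SCC6 against SCC1 comparison to 639 and 539. Centring moved the median of all regions in SCC25 against SCC1 from -0.04 to -0.52.

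A member was called higher in 1 line when it passed the test and exceeded both other lines by a log2 difference of 1 or more in the PBS libraries. By this rule 305 members (18.8%) were higher in SCC25, 101 (6.23%) in SCC6 and 59 (3.64%) in SCC1. Among all regions tested the shares were 15.1%, 15.3% and 6.54%. On the deposited scaling the share was above the background in SCC25 and below it in SCC6 and SCC1. Among narrower distal regions the shares were 17.8%, 17.7% and 7.50%, and among wide regions near start sites 2.50%, 3.51% and 0.946%. The SCC25 share of members was thus close to that of narrower distal regions, while their SCC6 and SCC1 shares were lower. Centring gave 235, 91 and 180 members in SCC25, SCC6 and SCC1, and removal of the GC trend 233, 185 and 63, for which the shares over all regions were not computed. Neighbouring regions moved along with some of them: the median over all regions within 1 Mb was itself at least 1 higher in that line than in both others for 68 of the 305 members of SCC25 (22.3%), of which 21 were on chromosome 1, for 25 of the 101 of SCC6 (24.8%), of which 14 were on chromosome 11, and for 0 of the 59 of SCC1. Among all regions higher in 1 untreated line by the same rule, this share was 12.7% in SCC25, 9.49% in SCC6 and 2.14% in SCC1. Chromosome 1 led there too in SCC25 (479 of 1664 regions) and chromosome 11 in SCC6 (330 of 1251). Peaks gave a coarser view. A peak in every library was present in 350 members (20.5%, and 4.72% of all regions), and 1232 (72.3%) had a peak in at least 1 library of each line. Peaks in every library of 1 line and in none of the other lines were found for 39 members in SCC25, 17 in SCC6 and 0 in SCC1 (2.29%, 0.997% and 0% of members, against 0.747%, 7.35% and 0.110% of all regions). These counts rest on the peak threshold: with peaks of −log10 q of 5 or more 1 member was left in SCC25, 1 in SCC6 and 0 with a peak in every library, and with peaks covering 50% of the region 15 members had one in every library. Called peaks per library ran from 13035 to 36033 in SCC1, 47441 to 101272 in SCC6 and 18642 to 81963 in SCC25. SCC1 cetuximab replicate 2 had a peak in 35.7% of members, and the part of depth in these counts was not tested.

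Members higher in 1 untreated line were ranked by the smaller of their log2 differences from the other lines. Among those higher in SCC25, the first was near VEGFC, which encodes a growth factor for lymphatic vessels, at chr4:177804735-177805604 inside a non-coding gene. Its PBS signal was 306, 311 and 367 in SCC25, 5.20 and 16.7 in SCC1 and 3.62, 3.35 and 1.09 in SCC6. All SCC25 libraries were far above the rest, and the regions within 1 Mb were also higher there, by a median log2 of 1.03 against SCC1 and 1.75 against SCC6. At chr4:31615539-31616380, 889 kb from PCDH7, a protocadherin gene, the PBS signal was 265 to 300.3 in SCC25, 22.1 and 3.35 in SCC1 and 4.83, 4.01 and 7.61 in SCC6, with neighbours at -0.43 and 0.18. Here the neighbours did not share the difference.

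In SCC6 the first was at chr11:101896489-101897353, near CFAP300, a gene of motile cilia, with a PBS signal of 492, 529 and 531 against 14.3 and 19.0 in SCC1 and 10.6, 23.8 and 7.63 in SCC25. It lies in the same stretch of chromosome 11 as the MMP members, and the regions within 1 Mb had a median log2 difference of 3.37 for SCC6 against SCC1 and -3.54 for SCC25 against SCC6. The second, in an intron of IMMP2L at chr7:110888956-110889997, had 60.4, 49.5 and 37.0 in SCC6 and stood at the floor of 1 read in all PBS libraries of the other lines. Its neighbours were not higher in SCC6 (median log2 -0.22 against SCC1).

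In SCC1 the first was at chr6:105356530-105357347, 27.1 kb from LIN28B, which encodes an RNA-binding protein that blocks the maturation of microRNAs. The PBS signal there was 141 and 132 in SCC1, 25.4, 23.4 and 19.6 in SCC6 and 28.6, 27.4 and 35.6 in SCC25. The second was near DUSP5, a phosphatase that removes the activating phosphates of ERK, at chr10:112215939-112216784, with 316 and 260.2 in SCC1, 88.2, 72.3 and 60.9 in SCC6 and 60.3, 67.1 and 55.1 in SCC25. No SCC1 PBS library overlapped the PBS libraries of the other lines at either.

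**Figure D1:**
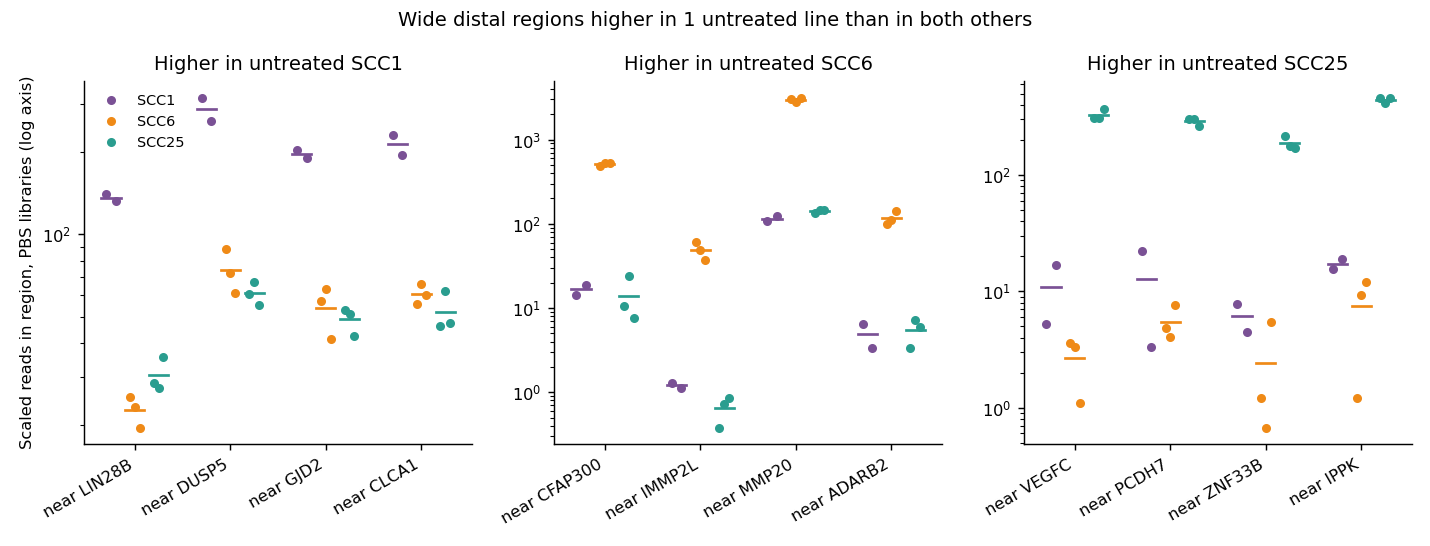
PBS signal (log axis, scaled reads per region) of 4 members higher in each untreated line, 1 point per library, coloured by line. They are the first 4 when ranked by the smaller of their log2 differences from the other lines. The 12 regions were chosen by the difference of that line from the others in these same libraries, so its standing apart is not a result. Near VEGFC the SCC25 libraries lie between 306 and 367 and the others at 16.7 or below.

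Change with cetuximab was first counted within each line. Of 1638 members tested in SCC1, 89 were higher (5.43%) and 249 lower (15.2%), where 4.57% and 6.56% of all regions were. Of 1572 tested in SCC6, 358 were higher (22.8%) and 246 lower (15.6%), against 16.9% and 10.6% of all regions. Of 1629 tested in SCC25, 2 were higher (0.123%) and 16 lower (0.982%), against 0.0405% and 0.275%. The share lower in SCC1 was thus more than 2 times the background, and in SCC6 both directions were above it. Members have more reads than most regions, with a median signal of 122 against 22.4 over the table, and the part of depth in these shares was not tested. Median log2 changes over the members tested were -0.15 in SCC1, 0.02 in SCC6 and -0.07 in SCC25, beside -0.09, 0.11 and -0.08 over all regions tested.

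The split between higher and lower moved with scaling. Median centring of the libraries gave 189 higher and 143 lower in SCC1, 258 and 476 in SCC6, and 3 and 3 in SCC25. It shifted the median change over the whole table from -0.09 to 0.11 in SCC1, from 0.11 to -0.07 in SCC6 and from -0.08 to 0.03 in SCC25. With the trend of log2 change on GC content removed, the counts were 114 and 173 in SCC1, 380 and 207 in SCC6, and 3 and 5 in SCC25. edgeR on the recovered reads called 129 and 239 in SCC1, 324 and 316 in SCC6, and 16 and 23 in SCC25, and DESeq2 called 85 and 133, 266 and 279, and 6 and 12. The excess of lower over higher members in SCC1 therefore held in these settings except centring, and the excess of higher members in SCC6 turned under centring and DESeq2. In SCC1 the counts also rested on single libraries: without PBS replicate 1 they were 26 higher and 67 lower, and without PBS replicate 3 they were 45 and 88.

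Wide regions near start sites went the other way. In SCC1, 415 of them were higher and 50 lower, and in SCC6 56 were higher and 488 lower. Within the wide distal set the same split appeared by CpG content. Members with a CpG ratio of 0.6 or more had 28 higher and 5 lower in SCC1 and 8 higher and 32 lower in SCC6, while those under 0.6 had 61 and 244 in SCC1 and 350 and 214 in SCC6. The 225 members within 1 kb of a lncRNA start had 21 higher and 7 lower in SCC1 and 11 and 26 in SCC6. Narrower distal regions, at 2.49% higher and 7.47% lower in SCC1 and 19.7% and 10.3% in SCC6, leaned the way of the CpG-poor members. Once the GC trend was removed, the split in calls held in SCC1 but not in SCC6. Wide regions near start sites then had 254 higher and 149 lower in SCC1 and 246 higher and 68 lower in SCC6. Members with a CpG ratio of 0.6 or more had 22 and 13 in SCC1 and 26 and 10 in SCC6. The median log2 changes in SCC1 no longer differed in sign. They went from 0.11 to -0.04 in wide regions near start sites and from 0.10 to -0.02 in members with a ratio of 0.6 or more. Members under 0.6 then had a median of -0.06 in SCC1. With centring the members under 0.6 turned to 252 higher and 381 lower in SCC6.

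**Figure D2:**
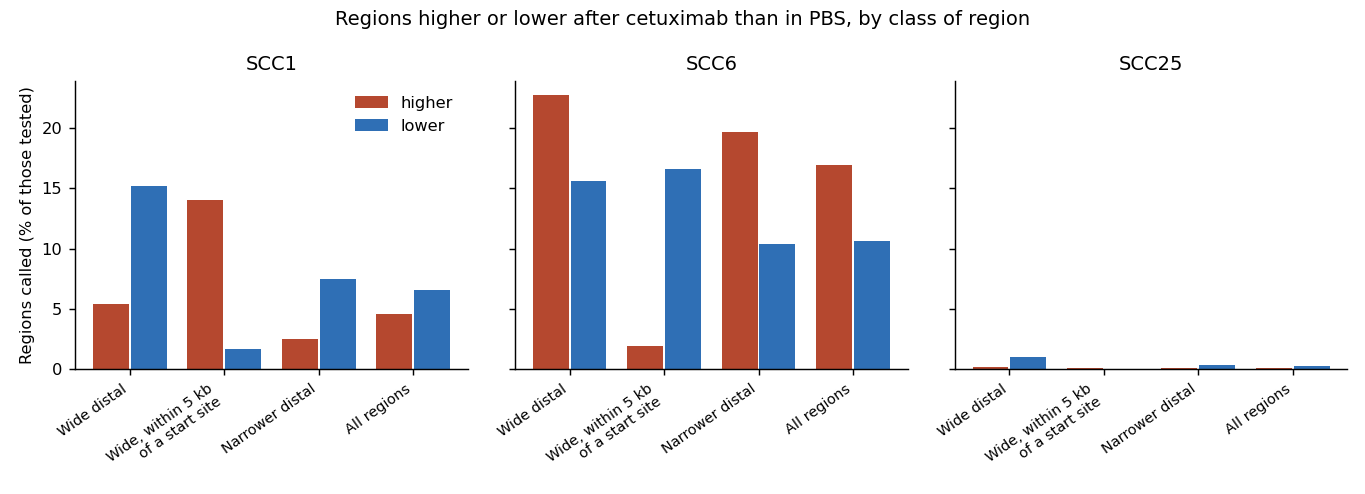
Percent of tested regions higher (red bars) or lower (blue bars) with cetuximab in each line, at an adjusted p under 0.05, for wide distal regions, wide regions within 5 kb of a start site, narrower distal regions and all regions. In SCC1 15.2% of wide distal regions were lower against 6.56% of all regions, while 14.0% of wide regions near start sites were higher and 1.69% lower, and in SCC25 all bars are close to 0.

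In SCC1 the lower members were led by an intron region of NT5E, chr6:86173956-86174914, 6.18 kb from the start of the gene. NT5E encodes the surface enzyme that makes adenosine from AMP. Its SCC1 signal was 71.1, 75.9 and 53.2 in the cetuximab libraries and 349 and 289 in the PBS libraries, a log2 change of -2.25 ± 0.23 (SE, adjusted p = 6.62e-16). Both PBS libraries were more than 3 times above every treated one. Members named for a change within a line were chosen among those whose groups did not overlap, so their lack of overlap is not a result. Of all regions tested, the groups did not overlap in 40.0% in SCC1, 40.3% in SCC6 and 18.4% in SCC25. Among members tested the shares were 51.5%, 49.7% and 21.0%. It was also lower in SCC6, with 81.8, 84.5 and 78.0 in the cetuximab libraries and 170.4, 199 and 223 in the PBS libraries and a log2 change of -1.26 ± 0.15 (SE, adjusted p = 3.14e-09). In SCC25 the log2 change was -0.36 ± 0.12 (SE, adjusted p = 0.17), which did not pass.

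The other 3 named lower members of SCC1 lay near ANXA13, a membrane-binding annexin, CBLN1, an organiser of synapses, and COL22A1, a collagen gene. In an intron of ANXA13 (chr8:124720206-124721121) the SCC1 signal was 48.2, 87.6 and 62.6 in the cetuximab libraries and 269 and 312 in the PBS libraries, a log2 change of -2.16 ± 0.24 (SE, adjusted p = 2.22e-14). The same region was higher in SCC6, with 89.9, 112 and 101 in the cetuximab libraries and 41.1, 32.8 and 29.4 in the PBS libraries and a log2 change of 1.53 ± 0.22 (SE, adjusted p = 2.64e-07), so the lines moved in opposite directions and no groups overlapped. At chr16:49056553-49057484, 258 kb from CBLN1, the SCC1 signal was 34.3, 44.8 and 34.4 in the cetuximab libraries and 212 and 209.9 in the PBS libraries, a log2 change of -2.46 ± 0.28 (SE, adjusted p = 1.12e-13). At chr8:140227456-140228432, 301 kb from COL22A1, it was 43.2, 68.1 and 42.3 in the cetuximab libraries and 239 and 222 in the PBS libraries, a log2 change of -2.19 ± 0.26 (SE, adjusted p = 1.55e-12). In both, every treated library was far below the PBS libraries, and the COL22A1 member fell in SCC6 too (log2 -1.15, adjusted p = 3.07e-11).

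The higher members of SCC1 were led by chr17:41399778-41401183, a region of 1406 bases near TMEM106A with a CpG ratio of 0.629. Its SCC1 signal was 947, 635 and 1002 in the cetuximab libraries and 389 and 447 in the PBS libraries, a log2 change of 1.02 ± 0.13 (SE, adjusted p = 3e-10). All treated libraries were above both PBS libraries, but the 106 regions within 1 Mb also rose in SCC1, by a median log2 of 0.77, and whether the member changed apart from its surroundings was not tested. In SCC6 the same region fell, with 76.8, 57.6 and 87.6 in the cetuximab libraries and 104, 122 and 119.6 in the PBS libraries and a log2 change of -0.65 ± 0.18 (SE, adjusted p = 0.00477). At chr13:106466464-106467469, 348 kb from DAOA, the SCC1 signal was 176, 226 and 192 in the cetuximab libraries and 83.3 and 52.5 in the PBS libraries, a log2 change of 1.56 ± 0.23 (SE, adjusted p = 2.68e-08), while its neighbours had a median of -0.32. The member near VAV3, a guanine nucleotide exchange factor, at chr1:108588114-108589057 had 133, 119 and 117 in the cetuximab libraries and 27.3 and 41.3 in the PBS libraries, a log2 change of 1.84 ± 0.28 (SE, adjusted p = 9.65e-08). It rose further in SCC6, from 25.4, 13.4 and 13.1 to 177, 167 and 169, a log2 change of 3.30 ± 0.24 (SE, adjusted p = 1.73e-15), to a level still below that of every SCC25 library.

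In SCC6 the strongest higher member was in an intron of TRPC6, a calcium-permeable channel, at chr11:101349223-101350035. Its SCC6 signal was 1701, 1648 and 1564 in the cetuximab libraries and 384, 337 and 347 in the PBS libraries, a log2 change of 2.20 ± 0.06 (SE, adjusted p = 6.36e-31). Treated libraries lay far above every PBS library. This region sits in the same part of chromosome 11 as the MMP members, where neighbours were higher in untreated SCC6 than in SCC1 by a median log2 of 3.60, yet its own PBS difference from SCC1 was 0.30. Its neighbours had a median change with cetuximab of -0.06 in SCC6.

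A pair of members near LRATD2 followed. At chr8:127386973-127388099 the SCC6 signal was 800.1, 729 and 733 in the cetuximab libraries and 146, 147 and 175 in the PBS libraries, a log2 change of 2.27 ± 0.09 (SE, adjusted p = 9.98e-25). At chr8:127591683-127592695, inside the non-coding gene PCAT1, it was 1032, 981 and 982 in the cetuximab libraries and 275, 309.8 and 261 in the PBS libraries, a log2 change of 1.82 ± 0.08 (SE, adjusted p = 1.6e-24). Both lie on chromosome 8 and rose, and the first was low in the other lines (at most 64.5). An intron of DNAH5, which encodes a heavy chain of the dynein that moves cilia, held the fourth at chr5:13932388-13933202, with 359.6, 369 and 372 in the cetuximab libraries and 48.3, 36.8 and 26.1 in the PBS libraries and a log2 change of 3.31 ± 0.17 (SE, adjusted p = 4.12e-21). Treated SCC6 libraries there passed the level of SCC25 (206 to 255), having started below it.

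Members lower in SCC6 were led by chr7:12105637-12106593, 144 kb from TMEM106B, a lysosomal membrane protein. Its SCC6 signal was 85.9, 87.3 and 99.2 in the cetuximab libraries and 394, 400.1 and 413 in the PBS libraries, a log2 change of -2.14 ± 0.12 (SE, adjusted p = 1.6e-19). The treated libraries came down to the range of the SCC25 libraries (85.3 to 129). It was lower in SCC1 as well, at -1.05 ± 0.27 (SE, adjusted p = 0.00277) on the log2 scale. Next came chr8:140962764-140963563, in an intron of TRAPPC9 and nearest to the potassium channel gene KCNK9, with 166, 147 and 153 in the cetuximab libraries and 389, 395 and 375 in the PBS libraries and a log2 change of -1.31 ± 0.10 (SE, adjusted p = 5.54e-14). In an intron of HM13, which encodes a signal peptide peptidase, the region chr20:30154428-30155246 had 386, 373 and 326 in the cetuximab libraries and 708, 692 and 671 in the PBS libraries, a log2 change of -0.93 ± 0.08 (SE, adjusted p = 2.13e-13). Groups did not overlap in either, as the choice of named members required.

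Few members passed in SCC25. The higher ones were chr6:105356530-105357347, described above as the leading member of untreated SCC1, and the TMEM106A member. Near LIN28B the SCC25 signal was 66.1, 60.6 and 76.2 in the cetuximab libraries and 28.6, 27.4 and 35.6 in the PBS libraries, a log2 change of 1.12 ± 0.23 (SE, adjusted p = 0.0338). It rose in SCC6 from 25.4, 23.4 and 19.6 to 174, 146 and 160.0, a log2 change of 2.76 ± 0.21 (SE, adjusted p = 1.6e-14), which brought the treated SCC6 libraries just above untreated SCC1. In SCC1 itself the log2 change was 0.42 ± 0.21 (SE, adjusted p = 0.197). At TMEM106A the SCC25 signal was 350.1, 393 and 429 in the cetuximab libraries and 324, 257 and 248 in the PBS libraries, a log2 change of 0.50 ± 0.12 (SE, adjusted p = 0.0493), at the edge of the threshold.

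The 16 lower members of SCC25 were led by chr5:44664702-44665801, 143 kb from MRPS30, a mitochondrial ribosomal protein gene. Its signal was 558, 524 and 487 in the cetuximab libraries and 763, 714 and 773 in the PBS libraries, a log2 change of -0.52 ± 0.08 (SE, adjusted p = 0.0075). Near KCNC4, a voltage-gated potassium channel gene, the region chr1:110778366-110779391 over a UTR of that gene had 160.3, 218 and 172 in the cetuximab libraries and 307, 307 and 302 in the PBS libraries, a log2 change of -0.75 ± 0.13 (SE, adjusted p = 0.0105). At chr1:99922773-99923639, 188 kb from PALMD, the values were 284, 309 and 290.4 in the cetuximab libraries and 449.9, 432 and 439 in the PBS libraries, with a log2 change of -0.58 ± 0.10 (SE, adjusted p = 0.0116). In each the treated and PBS libraries of SCC25 were apart, as the choice required, by less than 2-fold. The fourth, chr8:77528396-77529394 near the zinc-finger homeobox gene ZFHX4, had 193, 188 and 145 in the cetuximab libraries and 247, 301 and 279.9 in the PBS libraries and a log2 change of -0.66 ± 0.13 (SE, adjusted p = 0.0284), but was higher in SCC6 (1.18 ± 0.35 (SE, adjusted p = 0.012)). All calls of SCC25 were fragile: leaving out any 1 of the 3 PBS libraries left 0 members past the threshold in limma in either direction, although 197 to 212 members then had an unadjusted p under 0.05, against 286 with all libraries. With all libraries edgeR called 16 higher and 23 lower, and DESeq2 6 and 12.

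**Figure D3:**
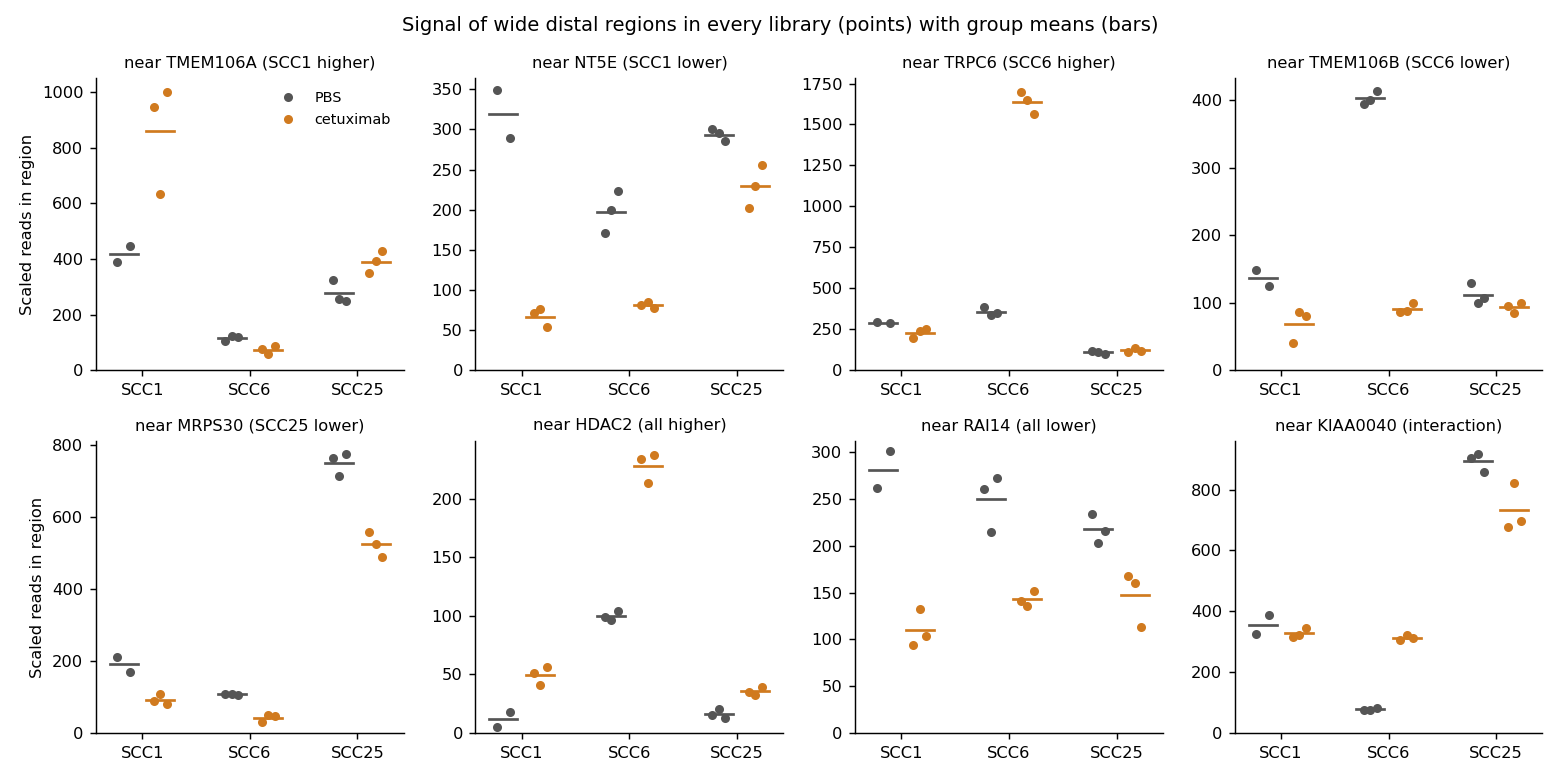
Signal (scaled reads per region) in every library of each line, PBS and cetuximab side by side, for 8 members, with bars at the group means. The NT5E member fell in SCC1 and SCC6, the TRPC6 and KIAA0040 members were called higher in SCC6 only, and the MRPS30 and RAI14 members had lower group means with cetuximab in every line.

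Over the 3 lines together, with the line as a covariate, 103 of 1621 members were higher (6.35%) and 212 lower (13.1%), beside 5.14% and 7.04% of all regions. Of these 315, 279 had a log2 change of the same sign in each line, 80 of them higher and 199 lower. They were called on their change over the lines together in the same libraries, which favours a shared sign. The share over all called regions was not computed. The split was 128 and 156 with centring, 148 and 157 with the GC trend removed and 154 and 206 by DESeq2. Among higher members with no opposing line the first was chr8:90816937-90817793, 46.9 kb from RIPK2, the kinase that carries signals from NOD receptors. It had 81.2, 111 and 139 in the cetuximab libraries and 18.2 and 44.7 in the PBS libraries in SCC1, 366, 378 and 360.4 in the cetuximab libraries and 139, 137 and 136 in the PBS libraries in SCC6 and 64.7, 31.3 and 47.8 in the cetuximab libraries and 16.2, 20.9 and 24.6 in the PBS libraries in SCC25. Its log2 change over all lines was 1.45 ± 0.18 (SE, adjusted p = 9.56e-05), and no line's groups overlapped. The second, chr6:114466096-114466906, is nearest to HDAC2, a histone deacetylase gene, but lies inside HS3ST5. Its SCC6 signal was 233, 214 and 237 in the cetuximab libraries and 99.1, 96.4 and 104 in the PBS libraries, and over all lines the log2 change was 1.45 ± 0.20 (SE, adjusted p = 0.000175). In SCC1 and SCC25 it was low, at 5.20 to 17.9 and 12.7 to 20.2 in PBS against 40.9 to 56.3 and 32.6 to 39.0 with cetuximab.

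On the lower side the first was chr8:62671952-62673092, near ASPH, an aspartate hydroxylase gene, with log2 changes of -1.29, -1.20 and -0.58 in SCC1, SCC6 and SCC25 (adjusted p over all lines = 1.97e-05). The MRPS30 member came second, at -0.96 ± 0.12 (SE, adjusted p = 9.56e-05). It had 88.9, 109 and 79.8 in the cetuximab libraries and 212 and 169 in the PBS libraries in SCC1 and 31.3, 49.2 and 46.9 in the cetuximab libraries and 109, 107 and 107 in the PBS libraries in SCC6, so that its level differed widely between lines while every treated group was below its PBS group. This is the window shown above with 2 AP-1 matches. The third was chr5:34585676-34586828, 69.6 kb from RAI14, which encodes a protein bound to actin. It had 93.9, 132 and 103 in the cetuximab libraries and 262 and 301 in the PBS libraries in SCC1, 141, 136 and 152 in the cetuximab libraries and 261, 215 and 273 in the PBS libraries in SCC6 and 167, 160.2 and 113 in the cetuximab libraries and 234, 203 and 216 in the PBS libraries in SCC25. Over all lines its log2 change was -0.88 ± 0.11 (SE, adjusted p = 0.000107), with no overlap in any line, though SCC25 alone did not pass (adjusted p = 0.0785).

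The effect of cetuximab differed between lines for 483 of the 1621 members (29.8%) by the interaction term in limma (an F-test of whether the 3 lines shared 1 effect), beside 13.2% of all regions. The smallest p belonged to chr1:175190942-175191795, 28.9 kb from KIAA0040. Its SCC6 signal was 306, 321 and 312 in the cetuximab libraries and 74.9, 75.6 and 82.7 in the PBS libraries, a log2 change of 2.00 ± 0.13 (SE, adjusted p = 5.11e-17), against -0.12 ± 0.16 (SE, adjusted p = 0.721) in SCC1 and -0.29 ± 0.08 (SE, adjusted p = 0.0984) in SCC25 (interaction adjusted p = 3.26e-11). Treated SCC6 libraries came close to the level of SCC1 (315 to 386) and stayed below SCC25. The TRPC6 member was second (adjusted p = 2.11e-10). The third, chr13:34207923-34208982, 183 kb from RFC3, which encodes a subunit of the clamp loader of DNA replication, rose in SCC6 from 24.2, 23.4 and 26.1 to 217, 215 and 207, a log2 change of 3.07 ± 0.19 (SE, adjusted p = 1.29e-17), and did not pass in SCC1 or SCC25 (interaction adjusted p = 3.43e-09). All 3 were thus higher in SCC6 with no called change elsewhere.

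Around MYC, the 8 members lay 66.2 to 439 kb from its start sites, 7 of them inside the non-coding gene PVT1. In SCC1, 7 of the 8 were lower and none was higher. Over all members tested, 15.2% were lower in SCC1 and 22.8% higher in SCC6, and over all regions 6.56% and 16.9%. The largest change was at chr8:128981672-128982474, with 58.4, 56.4 and 93.9 in the cetuximab libraries and 249 and 189.8 in the PBS libraries and a log2 change of -1.67 ± 0.25 (SE, adjusted p = 2.37e-08). At chr8:129139586-129140447 the SCC1 signal was 33.0, 70.1 and 53.2 in the cetuximab libraries and 134 and 106 in the PBS libraries, a log2 change of -1.24 ± 0.29 (SE, adjusted p = 0.00086). The member closest to MYC, chr8:128680273-128681463, had 333, 304 and 297 in the cetuximab libraries and 526 and 517 in the PBS libraries, a log2 change of -0.74 ± 0.15 (SE, adjusted p = 0.000153). In each of these the SCC1 groups were apart, as in 333 of the 338 members called in SCC1, so this adds little to the calls. The surroundings moved with them in SCC1, where the regions within 1 Mb of the 8 members had median log2 changes of -0.50 to -0.44, against -0.09 over all regions, and 3 of the 7 lower members (-0.74, -0.50 and -0.45) were close to that. In SCC6, 3 of the 8 were higher (log2 0.35, 0.53 and 0.42) and none lower, and in SCC25 none passed in limma. With other scalings and count tools 4 to 7 of the 8 were lower in SCC1 and none higher, and in SCC6 2 to 4 were higher, with 1 lower under centring. The interaction passed for 7 of the 8, with adjusted p of 5.48e-05 to 0.0197, beside 29.8% of all members and 13.2% of all regions.

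The 5 members of EGFR lay 10.9 to 91.0 kb from its start sites, 3 of them in its introns. In SCC6, 3 were higher and none lower, beside 22.8% of all members and 16.9% of all regions higher. At chr7:55188323-55189179, in an intron, the SCC6 signal was 154, 156 and 149.8 in the cetuximab libraries and 55.6, 66.9 and 55.5 in the PBS libraries, a log2 change of 1.36 ± 0.17 (SE, adjusted p = 1.3e-08). Upstream of the gene, at chr7:55014032-55014840, it was 74.8, 75.2 and 90.9 in the cetuximab libraries and 42.3, 30.1 and 21.8 in the PBS libraries, a log2 change of 1.37 ± 0.24 (SE, adjusted p = 1.77e-05). The strongest of the 5 by level, chr7:55200376-55201815, had 829, 862 and 792 in the cetuximab libraries and 725, 706 and 728 in the PBS libraries, a log2 change of 0.20 ± 0.06 (SE, adjusted p = 0.0123). In all 3 the treated libraries lay above the PBS libraries, by a small margin in the last. The groups did not overlap in 582 of the 604 members called in SCC6, so this adds little to the calls. None passed in SCC1 or SCC25, where log2 changes ran from -0.34 to 0.41 and from -0.23 to 0.08. With other scalings and count tools 2 or 3 of the 5 were higher in SCC6, the strongest by level not passing under centring, edgeR or DESeq2, and 1 was lower in SCC1 after quantile normalization. Near NFATC2, 2 of 5 members were lower in SCC1 (-1.58 and -0.98) and 2 others were higher in SCC6 (1.37 and 0.63), with 1 lower in SCC1 by DESeq2 or with the GC trend removed and 1 higher in SCC6 with centring.

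**Figure D4:**
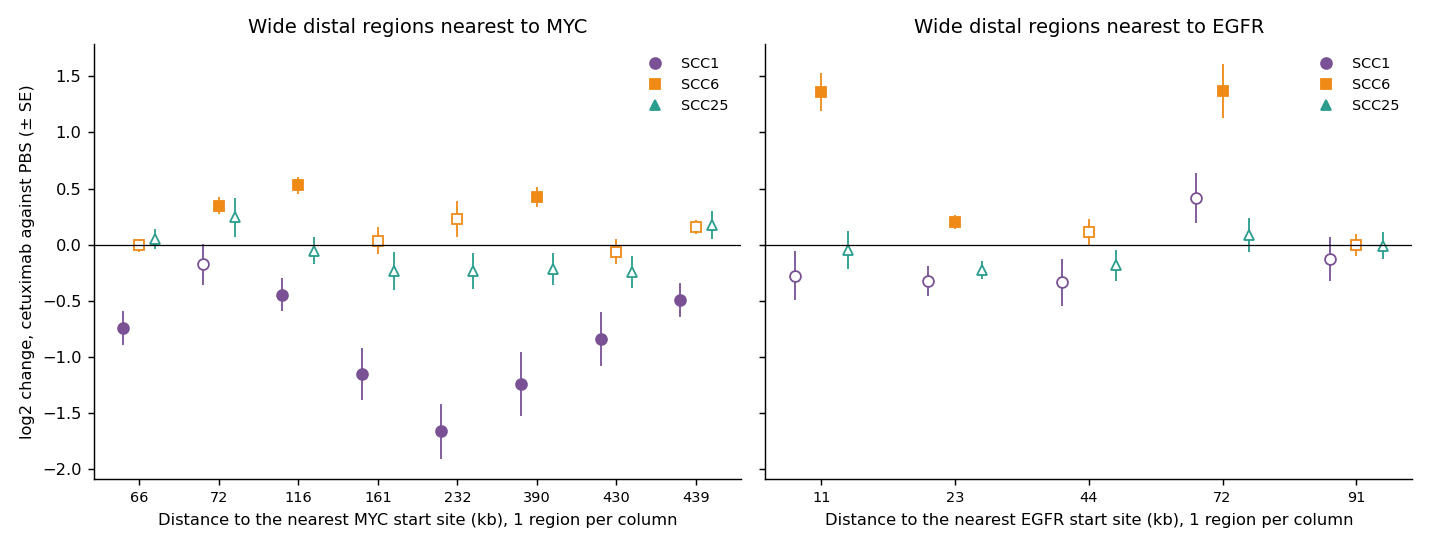
Log2 change with cetuximab (± SE) of each of the 8 members nearest to MYC and the 5 nearest to EGFR in each line, ordered by distance from the gene's start sites in kb, with filled points for an adjusted p under 0.05. In SCC1 7 of the 8 MYC members are called lower, down to -1.67, and in SCC6 3 of the 5 EGFR members are called higher, up to 1.37.

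The genes of the EGFR family, its ligands and ERK outputs were the nearest genes of 22 members (1.29% of members and 0.699% of all regions), of which 13 were those of MYC and EGFR. Of the 21 tested, 0 were higher and 8 lower in SCC1 (median log2 -0.39, and -0.09 over all regions), 6 higher and 4 lower in SCC6 (0.11, and 0.11 over all regions), and 0 and 1 in SCC25. Over all members tested, 5.43% were higher and 15.2% lower in SCC1, 22.8% and 15.6% in SCC6 and 0.123% and 0.982% in SCC25. Over all regions the shares were 4.57% and 6.56%, 16.9% and 10.6%, and 0.0405% and 0.275%. Other scalings and count tools gave 0 higher and 4 to 8 lower in SCC1, while in SCC6 centring turned the split to 4 higher and 7 lower. The eighth lower member in SCC1 was near PHLDA1, a gene induced by ERK, at 168 kb (log2 -1.39), and this region was lower in SCC6 too (-1.69). Near LRIG3, of a family of transmembrane proteins that includes regulators of EGFR, a member 460 kb away was lower in SCC6 (-1.83) and SCC25 (-0.62).

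Genes of the epithelial-mesenchymal transition and the extracellular matrix were nearest to 21 members (1.23%, and 0.850% of all regions). Of 20 tested, 2 were higher and 8 lower in SCC1 (median log2 -0.65), 10 higher and 1 lower in SCC6 (0.42), and none passed in SCC25. Beside this and the lists that follow, over all regions 4.57% were higher and 6.56% lower in SCC1 and 16.9% and 10.6% in SCC6, and over all members 5.43% and 15.2% in SCC1 and 22.8% and 15.6% in SCC6. The interaction passed for 14 of the members of this list, beside 29.8% of all members and 13.2% of all regions. Other scalings and count tools gave 2 higher and 3 to 9 lower in SCC1, and 9 to 11 higher and 0 to 4 lower in SCC6. TNC, which encodes the matrix glycoprotein tenascin C, had 3 members, all lower in SCC1 (log2 -1.93, -0.76 and -0.64, and 1 to 3 of them with other scalings and count tools), of which 2 were higher in SCC6 (0.80 and 0.57). Near INHBA, which encodes a subunit of activin, 2 of 3 were lower in SCC1 (-1.57 and -0.54) and the third was higher in SCC6 (0.86). Near CDH2, the gene of N-cadherin, 1 of 3 was lower in SCC1 (-1.88) and another was higher in SCC1 (0.60) and SCC6 (0.89). The largest rise of the list was 113 kb from TPM1, a tropomyosin gene, at chr15:63220548-63221473, with 147, 187 and 155 in the cetuximab libraries and 43.5, 28.8 and 32.6 in the PBS libraries in SCC6, a log2 change of 2.20 ± 0.20 (SE, adjusted p = 1.81e-12). Members near FN1 (0.55), MMP3 (0.60), TGFB2 (1.23) and ITGB6 (0.69) were also higher in SCC6.

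Targets of TEAD and the Hippo pathway were nearest to 17 members (0.997%, and 0.535% of all regions), with 1 higher and 3 lower in SCC1 (median log2 -0.26), 4 and 5 in SCC6 (0.02), and 0 and 1 in SCC25. Centring gave 1 and 1 in SCC1 and 3 and 8 in SCC6, DESeq2 1 and 1 in SCC1, and removal of the GC trend 0 and 3 in SCC1. The NT5E member described above is one of them. Near F3, the gene of tissue factor, a member was lower in SCC6 (-0.53) and SCC25 (-0.40). Near YAP1, the TEAD coactivator, 1 of 2 members was lower in SCC1 (-0.88) and the other in SCC6 (-0.28). For TFAP2 factors and receptor tyrosine kinases there were 12 members, with 0 higher and 1 lower of 11 in SCC1, 2 and 3 of 11 in SCC6 and none of 12 in SCC25. The SCC1 call was lost with centring, DESeq2 and the GC trend removed, and SCC6 had 2 and 5 with centring and 3 and 2 with the GC trend removed. ROR1, an orphan receptor kinase, had a member that rose in SCC6 from 6.04, 4.68 and 6.53 to 18.2, 31.6 and 32.1, and the member in an intron of ROR2 fell from 20.1 to 31.4 in PBS to 2.02, 6.50 and 5.62, both at low signal. TFAP2C had 2 members, one lower in SCC6 (-0.42).

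Motif letters were counted in the members that rose and in those that fell. The central 300 bases held an AP-1 match in 25.7% of all members and 3.64% of wide regions near start sites. The share was 43.6% in the 31142 narrower distal regions of at least 300 bases. Over their whole length 63.7% of members held a match, which was not counted in narrower regions. In SCC1, 37.8% of the 249 lower members and 13.5% of the 89 higher ones had one, beside 24.2% of 682 members with an adjusted p over 0.5. In SCC6 the shares were 36.2% of lower, 29.3% of higher and 24.1% of members over 0.5, and over all lines 41.0%, 26.2% and 22.2%. A TEAD match was present in 19.6% of members. Its share was 31.1% in members higher and 16.5% in members lower over all lines, and 25.7% and 17.5% in SCC6. The SP/KLF letters went with GC content: 37.1% of members higher in SCC1 (median GC 58.5%) held them, against 8.03% of those lower (46.9%). These shares are descriptions without a test, and the groups differ in GC content.

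**Figure D5:**
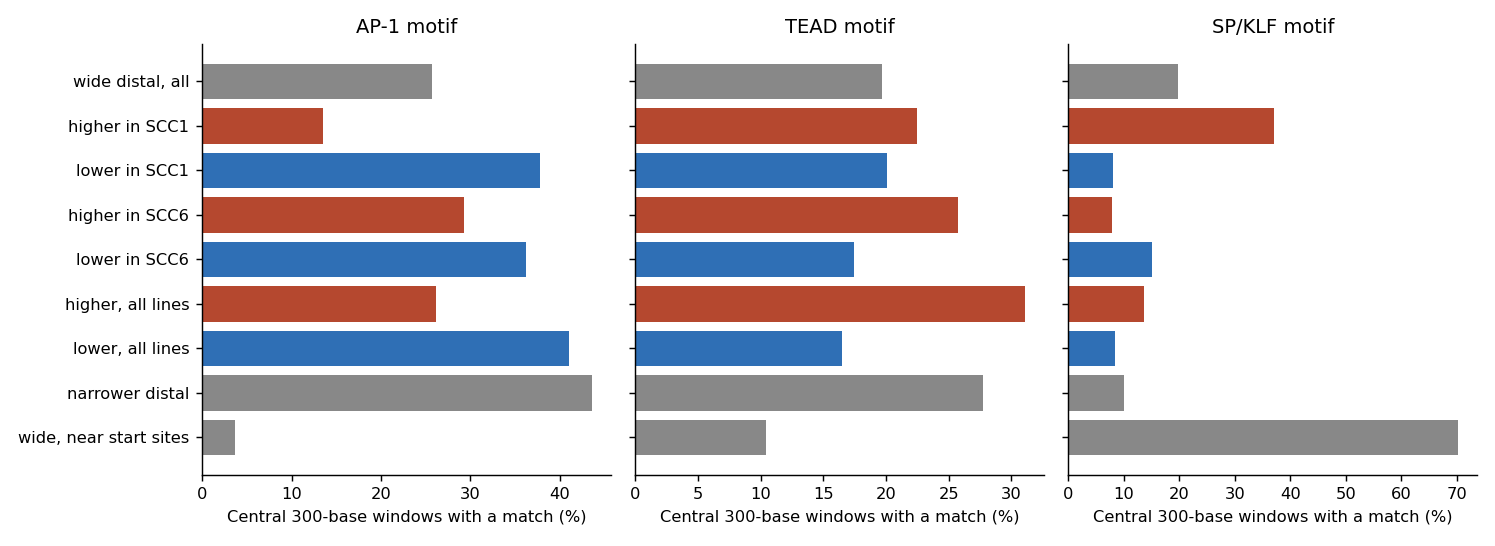
Percent of regions whose central 300 bases hold the AP-1, TEAD or SP/KLF letters, for wide distal regions, comparison classes and the members higher or lower with cetuximab. The narrower distal class holds only regions of at least 300 bases. AP-1 letters were more frequent in lower than in higher members in SCC1 (37.8% against 13.5%) and over all lines (41.0% against 26.2%), and SP/KLF letters were most frequent near start sites (70.2%).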

How the data were processed

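Deposited ATAC-seq values of 17 libraries were used. Per the submitters' processing notes and the methods, reads were trimmed (Trim Galore 0.5.0), aligned to hg19 (Bowtie2 2.3.2), cleared of duplicate and mitochondrial reads (Picard 2.18, SAMtools 1.9), and peaks were called per library with MACS2 and merged with DiffBind, whose versions and settings are not given in the sources used here. The deposited region table holds a scaled signal. The deposited peak lists hold, for each peak, its fold enrichment as a ratio and the −log10 of its p-value and q-value, and only peak positions and q were used. Dividing the signal by a step of 0.331 to 1.95 per library gave whole reads for 100% of values (tolerance 0.001). The unit being a scaled signal, limma was the test in place of edgeR, which the plan named for counts.

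Region signal was tested as log2(signal + 1) with limma 3.58.1 (R 4.3.3, trend and robust, two-sided), leaving out the lowest 25% by mean in each fit, on all regions with Benjamini-Hochberg adjustment at 0.05, and a log2 change is understated at low signal. Each line was fitted on its own, then all lines with line as a covariate, an F-test of the interaction, and PBS libraries between lines. edgeR 4.0.16 and DESeq2 1.42.0 on the recovered reads, other scalings, a pseudocount of 5, no filter, an adjusted p under 0.01, a distance over 10 kb, a replicate block and leaving out each library were alternatives, and fits were tested on simulated data. Distances were taken to 78399 start sites of 19756 protein-coding genes (GENCODE release 44 on GRCh37). Coordinates are as the authors' table gives them. Named regions are, per line and direction, the 4 with the smallest adjusted p among those whose groups do not overlap, 3 over the lines together whose direction is shared by each line, 3 for the interaction, 4 per untreated line, the 5 widest, the 5 highest in signal per kilobase, the genes with 4 or more members, and up to 3 per gene list, and 1 region so chosen is not reported here. The members and lists were chosen with earlier results of these data known. Genotypes, copy number and RNA were not used here.

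Same-numbered treated and PBS replicates did not deviate together (Pearson's r -0.023 to 0.038 across regions). Python 3.11.15 (numpy 2.4.6, pandas 2.3.3, matplotlib 3.10.9) did the rest.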

Additional observations from a re-analysis of the deposited data

Results flagged for a closer look

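For 22 of the members named for the smallest p of a change or of this test, the effect of cetuximab differed between lines by the interaction test of limma, with adjusted p-values as follows. Over all 104 regions chosen by the naming rules it passed for 56. SCC6 rose most at KIAA0040 (3.26e-11), TRPC6 (2.11e-10), RFC3 (3.43e-09), DNAH5 (1.09e-07), VAV3 (2.52e-07), LIN28B (5.71e-06), the LRATD2 member inside PCAT1 (3.29e-05) and the other LRATD2 member (0.00736). SCC1 fell most at COL22A1 (1.05e-06), NT5E (7.59e-06), CBLN1 (1.48e-05), PALMD (0.000578) and ASPH (0.0211). SCC6 fell most at TMEM106B (0.000117), KCNK9 (2.57e-05), HM13 (0.0433), KCNC4 (0.0376) and MRPS30 (0.028). DAOA (0.000623) rose in SCC1 alone of the calls. Called changes of opposite sign were present at ANXA13 (3.91e-09; SCC1 -2.16, SCC6 1.53), TMEM106A (4.56e-05; SCC1 1.02, SCC6 -0.65) and ZFHX4 (0.0132; SCC6 1.18, SCC25 -0.66), on the log2 scale. These members were picked by their change or by this test, with the same libraries, so the interaction is not independent of that choice. No cause was tested.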

How the results depend on the processing

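Counts of wide distal regions were compared under other settings. An adjusted p under 0.01 gave 50 higher and 154 lower in SCC1, 162 lower in SCC6, 0 higher and 1 lower in SCC25 (limma, 62 and 224 at an unadjusted p under 0.05), 31 higher and 87 lower over all lines and 273 for the interaction. Centring gave 189 and 143 in SCC1, 476 lower in SCC6, 3 lower in SCC25, 752 lower in SCC25 against SCC1 and 180 higher in untreated SCC1 alone. DESeq2 gave 133 lower in SCC1 and 6 higher in SCC25, and edgeR 16 higher in SCC25. In SCC25, GC correction gave 5 lower and quantile normalization 9, and GC correction gave 185 higher in untreated SCC6 alone. Peaks of −log10 q of 5 or more left 1 in SCC6 only, 1 in SCC25 only and 0 in every library, and peaks covering 50% of the region left 18 in SCC25 only and 15 in every library. No result moved by over 1.5 times with a pseudocount of 5, without the filter, beyond 10 kb, or without members within 1 kb of a lncRNA start, which was chosen after seeing the data.

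With the replicate block, SCC1 had 149 higher, SCC25 8 higher and 29 lower, and all lines 40 higher and 90 lower; SCC1 lower (304), SCC6 (359 and 254) and the interaction (561) stayed within 1.5 times. No pair of replicates correlated above 0.1, but with so few libraries per group this cannot show whether replicates of the same number were handled together.

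Leaving out 1 library gave 26 to 146 higher and 67 to 311 lower in SCC1, and 0 to 3 higher and 0 to 28 lower in SCC25. In SCC1 the higher count was 26 and 45 without PBS replicates 1 and 3, 42 and 146 without cetuximab replicates 1 and 2. In SCC25, 28 were lower without cetuximab replicate 2. The cause was not tested. Over 30 calls of members named for their change or interaction, under each alternative, 479 were kept, 21 were lost and 0 turned. All 21 concern SCC25. Calls near SOX2, MAF and EGFR, not among the 30, were lost as given beside them. The limma calls of SCC25 rest on every PBS library.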

Other observations

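Genes of the squamous lineage were nearest to 5 members, of which 1 passed, a region in the SOX2 overlapping transcript 143 kb from SOX2, a stem cell transcription factor gene. Its signal in SCC6 was 16.2, 12.1 and 15.2 in the cetuximab libraries and 1.21, 6.69 and 8.70 in the PBS libraries, a log2 change of 1.49 ± 0.55 (SE, adjusted p = 0.0387), which did not pass with the other scalings or count tools, while SCC25 had 152 to 239 in all libraries. Inflammatory and NF-kappaB genes were nearest to 6 members. TNFSF10, which encodes the death ligand TRAIL, had a member that was higher in SCC6, with 183, 206 and 143 in the cetuximab libraries and 48.3, 63.6 and 82.7 in the PBS libraries and a log2 change of 1.45 ± 0.18 (SE, adjusted p = 8.09e-09), and the BIRC3 member 10.4 kb from the gene was lower there, at -0.55 ± 0.06 (SE, adjusted p = 6.34e-07). For the AP-1 family the single member was near MAF and was higher in SCC6, at 0.61 ± 0.18 (SE, adjusted p = 0.0091), and did not pass with centring or DESeq2.

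AP-1 letters in the central 300 bases were present in 27.1% of members higher in untreated SCC1, 16.8% of those higher in SCC6 and 29.8% of those higher in SCC25, and TEAD letters in 28.8%, 18.8% and 18.4%. These are shares without a test.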
